A study of Homo sapiens with 12 samples.

Results

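The transcription factors of squamous epithelium followed here were TP63, SOX2, PITX1, KLF4, KLF5, GRHL2, GRHL3, TFAP2A, TFAP2C and OVOL1, 10 genes chosen by name among the 61044 gene IDs of a table of counts. Each symbol matched 1 ID, and all 10 were among the 17532 genes with enough counts to test. The cells were SCC-15, an established line from an oral squamous cell carcinoma. A control hairpin without a stated target (NC) was set against 3 hairpins directed at FMOD (shRNA1, shRNA2, shRNA3). FMOD encodes fibromodulin, a matrix proteoglycan that binds collagen, and RNA was taken after 48 hours. Each of the 4 groups had 3 libraries, 12 in all, and the stated aim was to find genes that differ once FMOD is depleted. The labels do not say whether the 3 libraries of a group came from separate cultures, or whether a line is a clone, so p-values measure only the spread between these libraries, which may be technical.

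In stratified epithelium, TP63 encodes p63, the factor that maintains basal keratinocytes and drives basal keratin and adhesion genes. SOX2, PITX1 and KLF5 act with p63 in squamous progenitors and carcinomas, AP-2 factors (TFAP2A, TFAP2C) accompany p63 at epidermal enhancers, and KLF4, GRHL3 and OVOL1 are known for the step from proliferation to barrier formation. GRHL2 and OVOL1 are also known for keeping epithelial genes on and mesenchymal genes off.

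Library totals lay between 17286934 and 19567192 counts. FMOD had 2, 2 and 3 counts in the NC libraries and 0 in all 9 shRNA libraries, at or under 3 counts throughout, so no fold was computed. Levels are given as CPM, counts scaled to each library's total and its TMM factor (0.771 and 0.795 in libraries 1 and 2 of shRNA3, 0.979 to 1.11 in the other 10). Across genes, log2(CPM + 1) of NC libraries correlated with that of shRNA libraries at Pearson r between 0.829 and 0.855, a description over genes, which are not independent replicates. Libraries of the 3 shRNAs correlated with one another at 0.904 or more, so NC stood farther from every shRNA library than these from each other. With FMOD at 3 counts or fewer the knockdown cannot be checked in these counts, and its effect cannot be told apart from any other difference between the NC line and the shRNA lines. Libraries 1 and 2 of shRNA3 stood apart from the third (r = 0.916 to 0.919, against 0.983 to 0.996 within the other groups), and library 3 of shRNA3 correlated with shRNA1 and shRNA2 libraries at 0.979 to 0.988. Squamous markers were read in full in every group (10 of 10), with summed levels of 2154 to 2354 CPM in NC and 1749 to 3361 CPM over the shRNA libraries. That sum hides moves in both directions. Of the 10 genes, 3 rose and 3 fell with all 3 shRNAs, and KRT5, given below, was among those that fell. Summed simple-epithelium markers (5 genes) ran from 1598 to 1703 CPM in NC and from 4765 to 7655 CPM with shRNAs, and mesenchyme markers (11 genes) from 226 to 268 CPM and from 566 to 1026 CPM. The mesenchyme genes did not rise together. Of the 9 tested, 3 rose and 5 fell with each shRNA, and VIM, given below, made up much of the sum with shRNAs. Endothelial, leukocyte and melanocyte markers stayed at or under 23.1, 5.07 and 9.04 CPM. The part of these shifts in the results below was not tested, and in bulk RNA fewer cells of a kind and less RNA per cell cannot be told apart.

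The factors did not move as a block. KLF5 and GRHL3 rose with all 3 shRNAs and GRHL2 and OVOL1 fell with all 3, while SOX2, PITX1, KLF4 and TP63 passed the test with 2 of the 3 and TFAP2A and TFAP2C with shRNA3 alone. In a test across all genes with edgeR's quasi-likelihood model and Benjamini-Hochberg adjustment at 0.05, 5 of the 10 factors passed with shRNA1 (3 higher, 2 lower), where 57.4% of all tested genes passed (26.8% higher, 30.6% lower). With shRNA2, 7 of 10 passed (4 higher, 3 lower), beside 53.0% of all genes (24.6% higher, 28.4% lower). With shRNA3, 10 of 10 passed (7 higher, 3 lower), beside 53.9% (26.4% higher, 27.6% lower). With the 3 shRNAs averaged and set against NC, 8 of 10 passed, with 60.0% of all genes. Passing in 1 direction with all 3 shRNAs held for 4 of 10 factors and for 35.7% of all genes (16.0% higher, 19.7% lower), so this share is close to that of the transcriptome. The 3 libraries of an shRNA lay wholly above or below NC for 9 of 10 factors with each shRNA, beside 74.3%, 79.6% and 57.5% of all genes. The factors' median log2 change was 0.18, 0.32 and 1.38 with shRNA1, shRNA2 and shRNA3, beside -0.02, -0.05 and -0.03 for all genes, and the median size without sign was 1.14, 1.69 and 2.23, beside 0.92, 0.85 and 0.87. The 3 comparisons share the NC libraries. Without library 3 of shRNA3, 8 factors passed with shRNA1, 8 with shRNA2 and 9 with shRNA3, and all genes passed more often too (73.1%, 70.2% and 73.1%). The 10 of 10 with shRNA3 became 7 with only the NC and shRNA3 libraries in the fit, beside 43.4% of all genes. It became 8 without any 1 of the NC libraries (45.9% to 46.3% of all genes) and on library totals without TMM (52.2%).

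**Figure D1:**
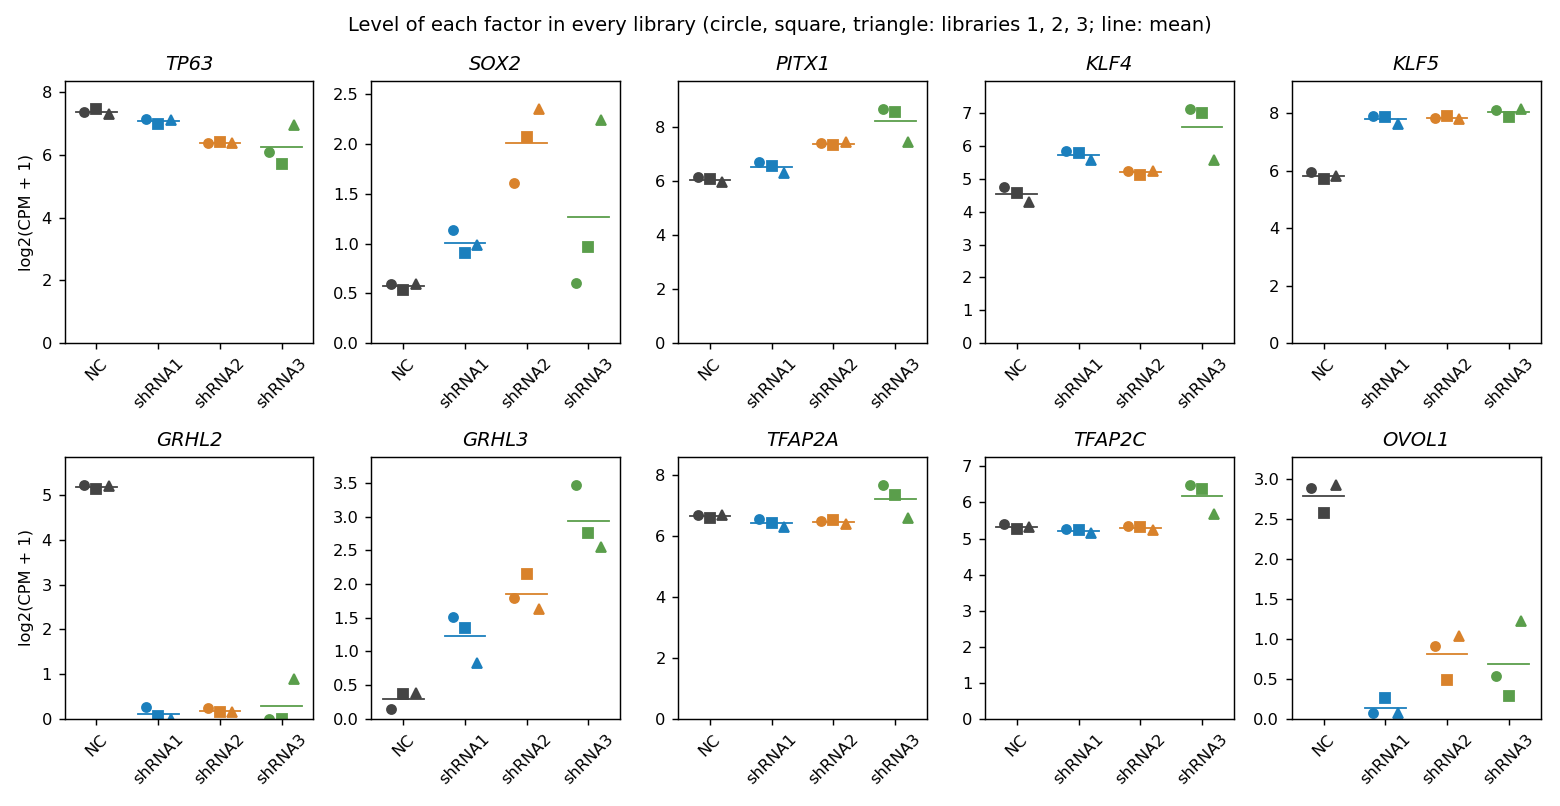
Level of each of the 10 factors in every library, as log2(CPM + 1) on an axis from 0, with circle, square and triangle for libraries 1, 2 and 3 and a line at the group mean. KLF5 is high in all 9 shRNA libraries (195 to 282 CPM, against 51.5 to 61.0 CPM in NC), and GRHL2 is near 0 in all 9. The triangle of shRNA3 departs from the mean of its circle and square by over 0.7 for TP63, SOX2, PITX1, KLF4, TFAP2A, TFAP2C, GRHL2 and OVOL1.

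Promoter sequence was available from RefSeq (GRCh38.p14) for 7 of the 10 factors, as the 200 bases from 250 to 51 bases before the start site. They are shown for the 2 factors that rose with all 3 shRNAs, for PITX1, which rose with 2, and for TP63, which fell with 2, with letters in capitals where a searched motif matched on either strand.
KLF5 (chr13:73054726-73054925, plus strand): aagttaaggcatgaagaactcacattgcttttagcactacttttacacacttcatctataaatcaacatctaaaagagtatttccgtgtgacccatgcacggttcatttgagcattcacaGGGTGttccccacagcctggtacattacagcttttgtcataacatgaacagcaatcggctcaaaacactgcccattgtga
GRHL3 (chr1:24319107-24319306, plus strand): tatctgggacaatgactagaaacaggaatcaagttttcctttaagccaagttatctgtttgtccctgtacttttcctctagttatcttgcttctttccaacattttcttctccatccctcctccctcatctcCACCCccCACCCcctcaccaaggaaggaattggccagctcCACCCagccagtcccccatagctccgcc
PITX1 (chr5:135034279-135034478, minus strand): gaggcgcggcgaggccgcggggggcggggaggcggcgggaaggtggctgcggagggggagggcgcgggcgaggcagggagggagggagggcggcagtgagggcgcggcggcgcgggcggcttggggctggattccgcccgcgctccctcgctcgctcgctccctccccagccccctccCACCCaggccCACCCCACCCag
TP63 (chr3:189631139-189631338, plus strand): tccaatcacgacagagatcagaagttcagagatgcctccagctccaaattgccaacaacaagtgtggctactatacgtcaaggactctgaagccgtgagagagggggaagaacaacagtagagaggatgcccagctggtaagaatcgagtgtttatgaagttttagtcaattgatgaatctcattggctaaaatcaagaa
The motifs were CACCC for KLF factors, AACCNGTT for GRHL, GCCNNNGGC for AP-2, ATTGTT for SOX, TAATCC for PITX and CCGTTA for OVOL. The KLF letters matched 1 time in the KLF5 window, 3 times in GRHL3 and 3 times in PITX1, and no searched motif matched in TP63. SOX2 and KLF4, which like PITX1 rose with 2 of the 3 shRNAs, had no KLF match in their windows. SOX2 had 1 AP-2 match, KLF4 had no match, and TFAP2A had 1 KLF match at 1 start site and 0 at the other. The TP63 window lies before the first base of the gene (189631416), and start sites inside that gene were not searched. The windows of PITX1 and KLF4, both on the minus strand, lie inside the annotated gene spans, which reach farther upstream (to 135034813 and 107490482). KLF5 and GRHL3 have a second start site in the table, whose windows held 1 and 0 KLF matches, and the first is shown. CACCC or its reverse complement is in 47.1% of 35116 promoter windows of this length, so a match is common. The other motifs are in 1.22% (GRHL), 15.7% (AP-2), 7.54% (SOX), 4.61% (PITX) and 1.89% (OVOL) of them.

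TP63 (chromosome 3, 189631416 to 189897279 on GRCh38) encodes the basal master regulator, and its counts pool its transcript forms. It stood at 163, 175 and 156 CPM in NC, 141, 124 and 136 with shRNA1, 81.7, 84.6 and 82.8 with shRNA2 and 66.4, 51.5 and 124 with shRNA3. All shRNA libraries were below all NC libraries, with shRNA3 library 3 at the level of the shRNA1 libraries. It fell 1.98-fold with shRNA2 (log2 change -0.99, SE 0.25, adjusted p = 0.00614) and 2.04-fold with shRNA3 (-1.03, SE 0.25, adjusted p = 0.00483), while with shRNA1 the change of -0.30 (SE 0.25) did not pass (adjusted p = 0.326). Without library 3 of shRNA3 the change with shRNA3 was -1.48, with that library alone (a fit in which the lone library is assumed to vary like the other groups) it was -0.38, and with only the NC and shRNA3 libraries in the fit it missed the threshold (adjusted p = 0.0521).

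SOX2 (chromosome 3, 181711924 to 181714436), a progenitor factor often amplified in squamous carcinomas, was barely expressed. It had 10, 9 and 10 counts in NC, 24, 18 and 19 with shRNA1, 35, 57 and 74 with shRNA2 and 7, 13 and 75 with shRNA3. As CPM the NC libraries lay between 0.443 and 0.507 and shRNA3 between 0.519 and 3.73, with library 1 of shRNA3 (0.519) close to NC and library 2 (0.947) within the range of shRNA1 (0.872 to 1.19). It rose 6.36-fold with shRNA2 (adjusted p = 0.00377) and 3.62-fold with shRNA3 (adjusted p = 0.0257), and the log2 change of 1.06 (SE 0.63) with shRNA1 did not pass (adjusted p = 0.173). The rise with shRNA3 rests on library 3: without it the log2 change was 0.59 (adjusted p = 0.275), and with it alone 2.95. The call was also lost without any 1 of the NC libraries, with only the NC and shRNA3 libraries in the fit (adjusted p = 0.0857) and on library totals without TMM (adjusted p = 0.0699).

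PITX1 (chromosome 5, 135027735 to 135034813, minus strand), a homeobox factor of oral epithelium, stood at 69.3, 65.2 and 60.8 CPM in NC and reached 101, 93.2 and 77.8 with shRNA1. It came to 167, 157 and 170 with shRNA2 and at 400.2, 367 and 170 with shRNA3. Every shRNA library exceeded every NC library, and libraries 1 and 2 of shRNA3 were 2.25 times above the third on average. It rose 2.53-fold with shRNA2 (log2 change 1.34, adjusted p = 0.00106) and 4.8-fold with shRNA3 (2.26, adjusted p = 3.3e-05), and with shRNA1 the change was 0.48 (adjusted p = 0.126). With library 3 of shRNA3 alone the rise with shRNA3 was 2.67-fold, close to that with shRNA2. The overlapping antisense gene AC008406.3 had 2 to 12 counts in any library.

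KLF5 (chromosome 13, 73054976 to 73077542), a zinc-finger factor of proliferating epithelial progenitors, had the narrowest spread of the 10 over the shRNA libraries. Its levels were 61.0, 51.5 and 55.3 CPM in NC, 241, 234 and 195 with shRNA1, 227, 236 and 224 with shRNA2 and 276, 234 and 282 with shRNA3. No shRNA library overlapped NC, and the highest and lowest of the 9 shRNA libraries differed 1.45-fold. KLF5 rose 3.99-fold with shRNA1 (log2 change 2.0, SE 0.14, adjusted p = 6.9e-07), 4.09-fold with shRNA2 (2.03, SE 0.14, adjusted p = 6.15e-07) and 4.72-fold with shRNA3 (2.24, SE 0.14, adjusted p = 3.46e-07).

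KLF4 (chromosome 9, 107484852 to 107490482, minus strand), which promotes terminal differentiation of keratinocytes, stood at 25.9, 22.9 and 18.7 CPM in NC and 56.8, 54.6 and 46.4 with shRNA1. With shRNA2 it stood at 36.5, 33.8 and 37.2, and with shRNA3 at 139, 127 and 46.8. All shRNA libraries exceeded NC, and libraries 1 and 2 of shRNA3 were 2.84 times above the third. KLF4 rose 2.34-fold with shRNA1 (log2 change 1.22, adjusted p = 0.00645) and 4.63-fold with shRNA3 (2.21, adjusted p = 0.000183), and the change of 0.67 with shRNA2 missed the threshold (adjusted p = 0.0950). With library 3 of shRNA3 alone the rise was 2.12-fold. KLF5 held 70.1% of the summed KLF4 and KLF5 level per length in NC (SD 3.02, n = 3), 80.0% with shRNA1 (SD 0.166), 85.7% with shRNA2 (SD 0.972) and 71.2% with shRNA3 (63.3% to 85.0% over its libraries).

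GRHL2 and GRHL3, paralogous grainyhead-like factors that bind the same kind of DNA site, moved in opposite directions. GRHL2 (chromosome 8, 101492432 to 101669726) had 725, 699 and 704 counts in NC, but 4, 1 and 0 with shRNA1, 3, 2 and 2 with shRNA2 and 0, 0 and 17 with shRNA3. In CPM that is 36.6, 34.4 and 35.7 in NC against at most 0.844 in any shRNA library. The fitted log2 changes were -8.63 (SE 0.97, adjusted p = 2.34e-05), -8.00 (SE 0.93, adjusted p = 3.14e-05) and -6.73 (SE 0.85, adjusted p = 5.77e-05). The pooled counts were 428 times lower with shRNA1 (95% counting interval 183 to 1319), 269 times lower with shRNA2 (130 to 669) and 99.1 times lower with shRNA3 (61.7 to 170). The shRNA3 value rests on the 17 counts of library 3: with that library alone the fitted fall was 41.0-fold, and libraries 1 and 2, both at 0, were at least 161-fold lower than NC against 3 counts per library. These intervals cover counting error only. The overlapping antisense gene AP001207.3 had 8, 22 and 11 counts in NC and 0 in all 9 shRNA libraries, and reads of the pair cannot be told apart without strand.

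GRHL3 (chromosome 1, 24319322 to 24364482), a factor for the epidermal barrier, had 2, 6 and 6 counts in NC, 37, 32 and 15 with shRNA1, 42, 61 and 38 with shRNA2 and 136, 79 and 98 with shRNA3. No shRNA library overlapped NC, which lay between 0.101 and 0.304 CPM. GRHL3 rose 5.80-fold (log2 change 2.54, SE 0.52, adjusted p = 0.00143), 11.1-fold (3.47, SE 0.51, adjusted p = 0.000176) and 28.7-fold (4.84, SE 0.52, adjusted p = 1.86e-05) with shRNA1, shRNA2 and shRNA3. Its level stayed low beside that of GRHL2 in NC: 6.90 CPM on average with shRNA3 (SD 2.79, n = 3).

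The make-up of the GRHL family differed, as shares of its level per length (TPM, counts per gene length scaled to a common total, summed over the family). In NC, GRHL2 held 70.9% (SD 1.14, n = 3), GRHL1 28.4% (SD 1.50) and GRHL3 0.725% (SD 0.373). With shRNA1, shRNA2 and shRNA3, GRHL3 held 53.8%, 55.9% and 49.1% and GRHL1 44.5%, 42.2% and 48.7%, leaving GRHL2 with 1.75%, 1.88% and 2.14%. The last is a mean of 0 in libraries 1 and 2 and 6.43% in library 3. The summed family level was 26.3 TPM in NC (SD 2.02) and 2.17 (SD 0.740), 3.28 (SD 1.07) and 8.28 TPM (SD 2.18) with the 3 shRNAs. GRHL1, the paralogue, fell with shRNA1 (8.37-fold, adjusted p = 7.16e-05) and shRNA2 (4.70-fold, adjusted p = 0.000532), and with shRNA3 its change of -0.36 did not pass (adjusted p = 0.423).

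**Figure D2:**
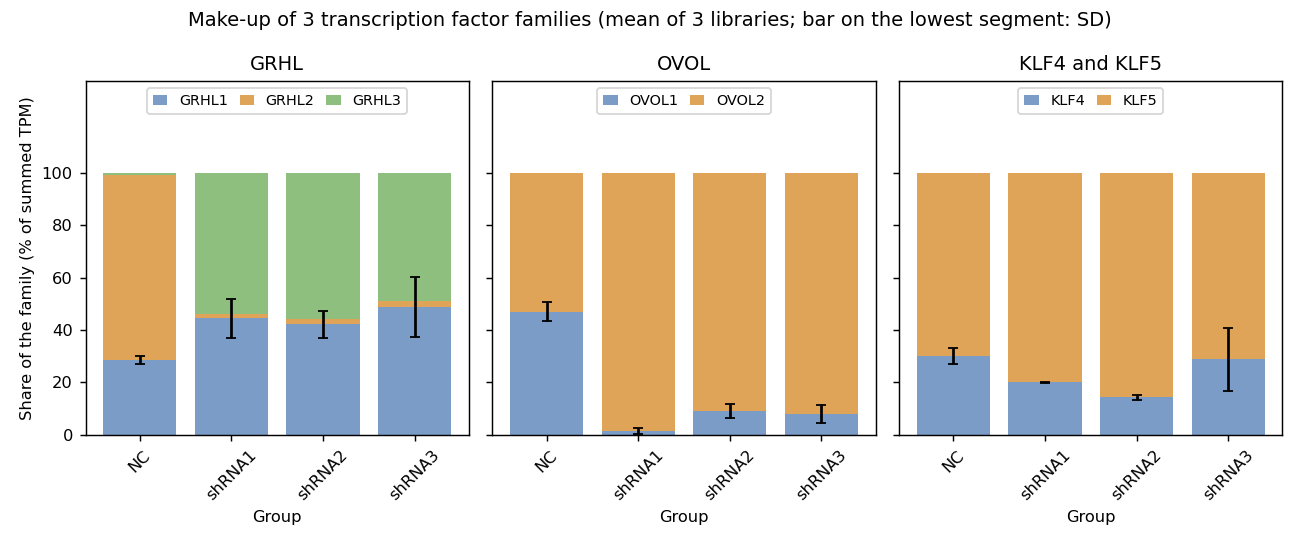
Share of each family's summed level per length (percent of TPM) held by each gene in the 4 groups, as the mean of 3 libraries with the SD as a bar on the lowest segment. GRHL2 falls from 70.9% of its family in NC to 1.75%, 1.88% and 2.14% with the 3 shRNAs, and OVOL1 from 47.0% to 1.43%, 8.98% and 7.77%.

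OVOL1 (chromosome 11, 65787022 to 65797219), a zinc-finger repressor of differentiating epithelium, had 126, 100 and 130 counts in NC, 1, 4 and 1 with shRNA1, 15, 7 and 19 with shRNA2 and 6, 3 and 27 with shRNA3. NC lay between 4.92 and 6.60 CPM and no shRNA library came above 1.34 CPM. OVOL1 fell with all 3 shRNAs, by 5.81 on the log2 scale with shRNA1 (SE 0.72, adjusted p = 4.84e-05), by 2.93 with shRNA2 (SE 0.58, adjusted p = 0.00132) and by 3.08 with shRNA3 (SE 0.59, adjusted p = 0.00105). With pooled counts it was 59.6 times lower with shRNA1 (27.1 to 164), 7.67 times lower with shRNA2 (5.54 to 10.9) and 7.83 times lower with shRNA3 (5.55 to 11.4). The fitted log2 change with shRNA3, -3.08, became -4.15 (17.7-fold) without library 3 and -2.12 (4.34-fold) with that library alone. OVOL1 held 47.0% of the OVOL1 and OVOL2 level in NC and 1.43%, 8.98% and 7.77% with the 3 shRNAs, and OVOL2 passed the test with none of them (log2 changes 0.01, 0.16 and 0.08). The antisense gene AP001266.1, which overlaps OVOL1, had 0 to 3 counts in any library.

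The AP-2 factors passed the test with shRNA3 and with neither of the other shRNAs. TFAP2A (chromosome 6, 10393186 to 10419659, minus strand) stood at 101, 95.3 and 101 CPM in NC, 91.7, 84.8 and 76.8 with shRNA1, 88.7, 89.7 and 82.5 with shRNA2 and 202, 161 and 94.1 with shRNA3. TFAP2C (chromosome 20, 56629302 to 56639283) stood at 41.6, 37.1 and 39.3 in NC, 37.6, 36.7 and 34.4 with shRNA1, 39.7, 39.2 and 36.5 with shRNA2 and 88.9, 82.5 and 50.2 with shRNA3. For both genes, libraries 1 and 2 of shRNA3 were far above the rest and library 3 near NC. TFAP2A rose 1.54-fold with shRNA3 (log2 change 0.62, SE 0.22, adjusted p = 0.0307) and TFAP2C 1.88-fold (0.91, SE 0.19, adjusted p = 0.00173). With library 3 of shRNA3 alone TFAP2A was at -0.04 and TFAP2C at 0.38, and on library totals without TMM TFAP2A missed the threshold (adjusted p = 0.237). The TFAP2A call was also lost without any 1 of the NC libraries, without library 1 or library 2 of shRNA3, and with only the NC and shRNA3 libraries in the fit (adjusted p = 0.0953). The antisense gene TFAP2A-AS1 had 241 and 301 counts in libraries 1 and 2 of shRNA3 and 17 to 27 in the other 10. TFAP2C kept 51.1% to 57.1% of the AP-2 family level in the 4 group means.

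**Figure D3:**
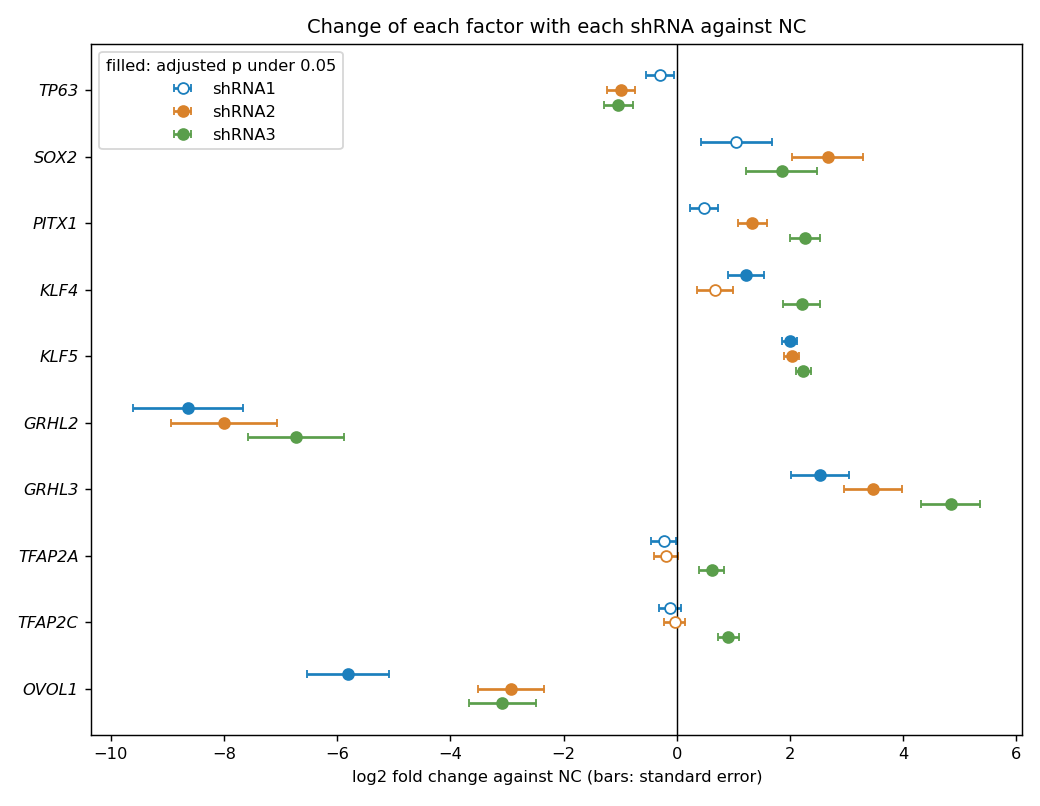
Log2 change of each factor against NC with the 3 shRNAs, with bars for the standard error and filled circles where the adjusted p is under 0.05. KLF5 lies at 2.0, 2.03 and 2.24, the other factors spread over the shRNAs, and shRNA3 fills all 10.

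Per gene length the factors ranked in NC as TP63 (70.4 TPM, SD 11.2), PITX1 (59.0, SD 7.92), KLF5 (45.5, SD 3.85), TFAP2C (41.5, SD 3.08), TFAP2A (37.9, SD 2.69), KLF4 (19.6, SD 4.16), GRHL2 (18.6, SD 1.48), OVOL1 (4.87, SD 0.319), SOX2 (0.610, SD 0.0219) and GRHL3 (0.189, SD 0.0972). The ranges over 3 libraries overlapped between TP63 and PITX1, KLF5 and TFAP2C, TFAP2C and TFAP2A, and KLF4 and GRHL2. These ranges ignore that both genes of a pair come from the same libraries, so they do not settle the order. As a share of the AP-2 family level in NC, TFAP2C held 50.6% to 51.5% and TFAP2A 45.5% to 47.7%. With the longest transcript as length, TFAP2A ranked 3 and TFAP2C 5. KLF5 came first with shRNA1 (193 TPM) and with shRNA2 (159 TPM, its range overlapping PITX1's), and PITX1 with shRNA3 (203 TPM, overlapping KLF5 at 162). TP63 was the third with shRNA1, the fourth with shRNA2 and the sixth with shRNA3. Genes shorter than 300 bases took 13.0% to 41.8% of the TPM of a library, and changes are given as CPM, not TPM.

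Between shRNAs, 2 of the 10 factors differed between shRNA1 and shRNA2 (12.3% of all genes), 7 between shRNA1 and shRNA3 (30.0%) and 4 between shRNA2 and shRNA3 (8.34%). OVOL1 was lower with shRNA1 than with shRNA2 (log2 difference -2.88, adjusted p = 0.0302) and shRNA3 (-2.73, adjusted p = 0.0226), and PITX1 was lower with shRNA1 than with shRNA2 (-0.86, adjusted p = 0.0490) and shRNA3 (-1.78, adjusted p = 0.00292). KLF5, SOX2 and GRHL2 passed in none of the 3 pairs, and SOX2 and GRHL2 had few counts to show a difference. These calls are fragile: with only the libraries of the 2 groups in the fit, 0 of 10 factors passed between shRNA1 and shRNA3 and 0 between shRNA2 and shRNA3, while 5 and 5 had an unadjusted p under 0.05 and DESeq2's Wald test called 7 and 5. In the same fits 0 of all genes passed in those pairs, with 4295 and 3186 genes at an unadjusted p under 0.05, while between shRNA1 and shRNA2 4 factors and 6251 genes passed. Leaving out single libraries gave 0 to 5, 4 to 6 and 0 to 8 calls in the 3 pairs, the highest in each pair without library 3 of shRNA3. By library, 4 of the 10 factors (TP63, SOX2, PITX1 and KLF4) differed by over 1 on the log2(CPM + 1) scale between library 3 of shRNA3 and the mean of the other two, against 29.8% of all genes.

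**Figure D4:**
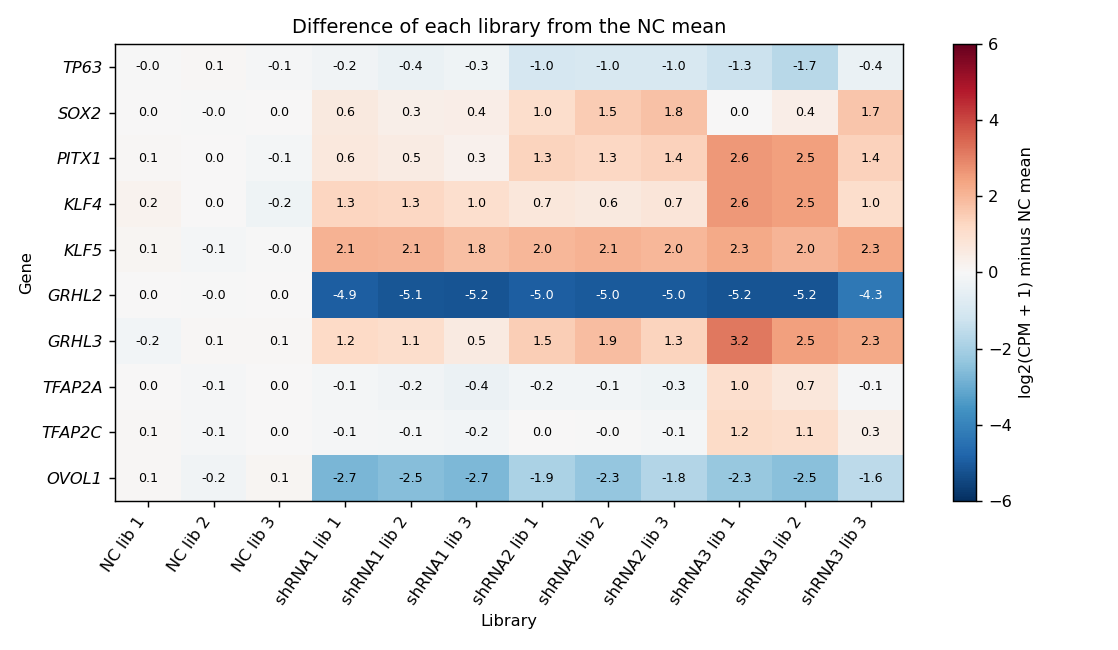
Difference of each library from the NC mean, in log2(CPM + 1), for the 10 factors (rows) and 12 libraries (columns), with red for higher and blue for lower. Every row but those of TFAP2A and TFAP2C stays on 1 side of the NC mean across the 9 shRNA libraries. In the shRNA3 columns, libraries 1 and 2 lie farther from the NC mean than library 3 for every factor but SOX2 and KLF5.

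Of 30 other regulators of squamous epithelium, 24 had enough counts to test. With shRNA1, shRNA2 and shRNA3, 5, 6 and 10 rose and 7, 8 and 5 fell, so 50.0%, 58.3% and 62.5% of the 24 passed beside 57.4%, 53.0% and 53.9% of all genes. Passing in 1 direction with all 3 shRNAs held for 6 of 24, or 25.0%, beside 35.7% of all genes. BARX2, PRDM1 and SOX15 were among those that rose with all 3, and FOXE1 and EHF fell with all 3. The ETS factor EHF went from 652, 560 and 608 CPM in NC to between 9.91 and 23.1 CPM in the 9 shRNA libraries, 40.9-, 29.6- and 42.3-fold lower (adjusted p = 2.43e-07, 3.5e-07 and 2.2e-07). The forkhead gene FOXE1 had 157, 140 and 140 counts in NC and 0 in all 9 shRNA libraries, at least 48.8-, 42.9- and 37.2-fold lower against 3 counts per library. The homeobox gene BARX2 had 15, 21 and 23 counts in NC and between 431 and 580 with shRNAs, 22.4-, 32.7- and 32.2-fold higher. Among paralogues, TP73 fell with shRNA1 (-0.87, adjusted p = 0.00451), rose with shRNA2 (0.82, adjusted p = 0.00651) and stood at 0.24 with shRNA3 (adjusted p = 0.354). KLF6 rose with shRNA1 (1.87, adjusted p = 0.0024) and shRNA3 (2.18, adjusted p = 0.00104), and stood at 0.55 with shRNA2 (adjusted p = 0.273).

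Of 16 genes described as targets of these factors, 15 were tested. With shRNA1, shRNA2 and shRNA3, 4, 5 and 6 rose and 6, 6 and 6 fell, so 10, 11 and 12 of 15 passed, beside 57.4%, 53.0% and 53.9% of all genes. Passing in 1 direction with all 3 held for 9 of 15, beside 35.7% of all genes. KRT5 and KRT14 encode the keratin pair of basal cells and went opposite ways. KRT5 stood at 1013, 1049 and 965 CPM in NC and between 16.5 and 90.3 with shRNAs, 47.1-, 12.6- and 13.5-fold lower (adjusted p = 1.76e-07, 1.08e-06 and 9.91e-07). KRT14 stood at 6.51, 6.65 and 9.59 CPM in NC, at 57.9, 52.2 and 56.5 with shRNA1, 24.2, 24.2 and 25.1 with shRNA2 and 230, 192 and 25.1 with shRNA3, and it rose 7.31-, 3.23- and 19.6-fold (adjusted p = 0.00148, 0.0256 and 0.000155). The adhesion gene CDH1, encoding E-cadherin, fell 8.44-, 6.04- and 4.89-fold, the splicing regulator ESRP1 5.56-, 2.61- and 2.49-fold, and the receptor gene FGFR2 44.2-fold with shRNA1 and 55.4-fold with shRNA3. With shRNA2, FGFR2 had 1, 0 and 0 counts, against 722, 704 and 653 in NC. RAB25, a trafficking GTPase gene described as a GRHL2 target, had 484, 431 and 455 counts in NC and at most 4 in any shRNA library. PERP and JAG2, described as p63 targets, rose with all 3 (1.47 to 2.03-fold and 1.75 to 2.63-fold).

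**Figure D5:**
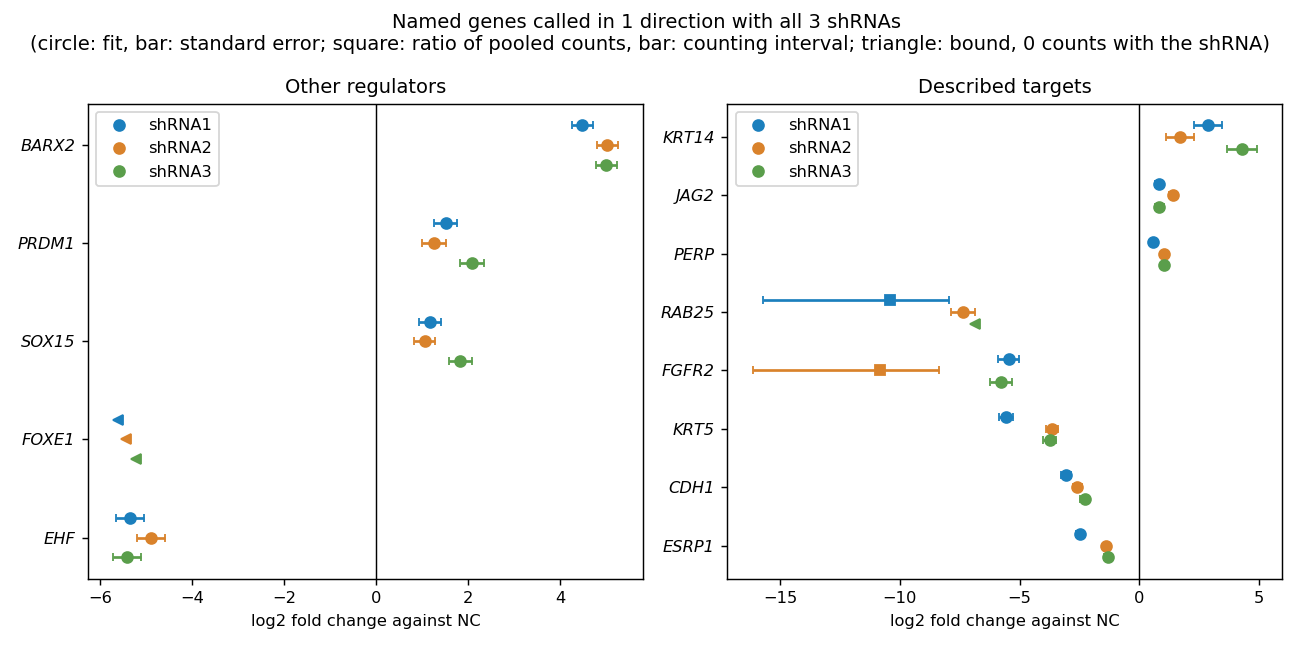
Log2 change against NC for the other regulators (left) and described targets (right) named here that passed in 1 direction with all 3 shRNAs, with circles for the fit and its standard error, squares for a ratio of pooled counts with its counting interval, and triangles for a bound where the shRNA group had 0 counts. BARX2 lies highest among the regulators, EHF and FOXE1 lie lowest, and RAB25, FGFR2 and KRT5 lie lowest among the targets.

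Genes with the pattern most like each factor were named by the smallest root mean square difference of centred log2(CPM + 1) over 12 libraries, among 10188 genes with a mean of at least 10 CPM. For KLF5 it was DROSHA (0.127), for PITX1 UBALD2 (0.112), for TFAP2A GNB2 (0.0851), for TFAP2C KDELR1 (0.0866), for TP63 ZNF106 (0.158) and for KLF4 OTUD1 (0.18). The factors with low counts in some or all groups lay farther from their nearest gene: SOX2 and TFEB 0.263, OVOL1 and DSC3 0.247, GRHL2 and SH3YL1 0.271, GRHL3 and ECM1 0.290. These differences are not scaled to each factor's own variation, whose root mean square ran from 0.390 for TFAP2A to 2.18 for GRHL2. Adding 1 flattens low levels, and the fitted log2 changes of a pair can differ. With shRNA1, shRNA2 and shRNA3 they were -5.81, -2.93 and -3.08 for OVOL1 and -2.55, -1.65 and -2.21 for DSC3. SH3YL1 averaged 53.2 CPM in NC, then 1.13, 1.25 and 0.921 with the 3 shRNAs. DSC3, a desmosomal cadherin gene, averaged 31.5 CPM in NC, then 5.38, 10.0 and 6.80.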

How the data were processed

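RNA of SCC-15 cells in 4 groups of 3 libraries was sequenced, with groups and replicate numbers from the sample titles. The values are estimated counts of reads per gene as the authors deposited them, in 1 unscaled table where 13.8% of entries are not whole numbers. Per the submitters' processing notes, HISAT2, HTSeq 0.11.2 and GRCh38 were used, and use of strand is not given in the sources used here. All 12 columns matched 1 sample each (columns not matched: 0). The 10 factors, the gene lists and the tests were chosen with earlier results of these data known.

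The deposited counts were rounded. Totals and TMM factors gave CPM, and genes were kept by filterByExpr (minimum count 10, minimum total 15), leaving 17532. Tests were two-sided edgeR quasi-likelihood F tests (R 4.3.3, edgeR 4.0.16, robust) in 1 model of the 4 groups with 8 residual degrees of freedom and a common biological coefficient of variation of 0.289, adjusted by Benjamini-Hochberg over all tested genes at 0.05. The procedure was run on simulated data with an equal and smaller spread in every group and far fewer changed genes than here. That run does not measure the error rate of the calls in these data. Levels per length (TPM) used the union of annotated exons in the GENCODE annotation. A group at 0 counts was set against 3 counts. Alternatives were DESeq2 size factors, DESeq2 1.42.0 Wald tests, no filter on low counts, a replicate block, only the groups compared, a log2 change of at least 1, libraries left out, the longest transcript and, chosen after seeing the data, library totals without TMM. Named genes were the 10 factors, their closest paralogues and the listed genes called in 1 direction with all 3 shRNAs, at most 5 per direction and list. Of the genes this rule names, some are not reported here.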

Additional observations from a re-analysis of the deposited data

Results flagged for a closer look

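The following differences between shRNAs passed the test of the difference itself (edgeR quasi-likelihood, adjusted p under 0.05, log2 scale, n = 3 libraries per group). OVOL1 differed by -2.88 between shRNA1 and shRNA2 and by -2.73 between shRNA1 and shRNA3. PITX1 differed by -0.86 between shRNA1 and shRNA2, -1.78 between shRNA1 and shRNA3 and -0.92 between shRNA2 and shRNA3. TP63 differed by 0.73 between shRNA1 and shRNA3, and GRHL3 by -2.30. KLF4 differed by -0.99 between shRNA1 and shRNA3 and by -1.54 between shRNA2 and shRNA3. TFAP2A differed by -0.85 and -0.81, and TFAP2C by -1.03 and -0.94, in the same 2 pairs. A negative value means the first shRNA named was lower. Library 3 of shRNA3 lay nearer to the shRNA1 libraries than libraries 1 and 2 for TP63, PITX1, KLF4, TFAP2A and TFAP2C. With that library alone for shRNA3, the differences between shRNA1 and shRNA3 shrank to 0.096 for TP63 and -0.17 for TFAP2A, and that of KLF4 turned to 0.15. Those between shRNA2 and shRNA3 shrank to -0.060 for PITX1, -0.40 for KLF4, -0.13 for TFAP2A and -0.40 for TFAP2C. Over 19 alternatives, 18 for OVOL1, no call held under all of them. Between shRNA1 and shRNA2, PITX1 lost its call under 11 and OVOL1 under 8. Between shRNA1 and shRNA3, TP63 and KLF4 lost it under 14 each, TFAP2A under 5, OVOL1 under 3, and PITX1, GRHL3 and TFAP2C under 1 each. Between shRNA2 and shRNA3, TFAP2A lost it under 16, PITX1 under 15, and KLF4 and TFAP2C under 11 each. With the replicate block, PITX1 (adjusted p = 0.0627) and TFAP2A (adjusted p = 0.0607) lost it in the last pair.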

How the results depend on the processing

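Against NC, 714 of the factor values under the alternatives kept direction and side of the threshold, 15 lost and 15 gained the call, and 6 reversed. KLF5 and GRHL3 (higher) and GRHL2 and OVOL1 (lower) kept their calls with all 3 shRNAs under each alternative run. SOX2 with shRNA3 lost its call under 6 alternatives and TFAP2A with shRNA3 under 7, with a reversal under 1 more; TP63 with shRNA3 lost it with only the groups compared, and SOX2 against the mean of shRNAs without NC replicate 2. With 3 libraries per group and low counts of SOX2, GRHL3 and GRHL2, the depth limits their precision.

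With shRNA1 against NC, 8 factors (12154 genes) passed with only the groups compared and 9 (13616 genes) with shRNA3 library 3 alone, against 5 and 10056. Genes called against the mean of shRNAs went from 10525 to 6990 with a log2 change of at least 1. On library totals without TMM the median of all genes moved by -0.32 with shRNA3, -0.13 with shRNA2 and -0.18 for the mean. With the longest transcript, 7 of 10 factors kept their rank in NC.

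Between shRNA1 and shRNA2, 1 factor passed with DESeq2 size factors, 1 on totals without TMM, 4 (6251 genes) with only the groups compared, 5 (7031 genes) with shRNA3 library 3 alone and 1 (1031 genes) with a log2 change of at least 1, and 1420 genes without the filter. Between shRNA1 and shRNA3, 0 factors and 0 genes passed with only the groups compared (4295 genes and 5 factors at an unadjusted p under 0.05 in edgeR), 1547 genes with library 3 alone, and 4 factors (2971 genes) with the log2 limit. Between shRNA2 and shRNA3, 0 factors and 0 genes passed with only the groups compared (3186 genes and 5 factors unadjusted), 1 factor (244 genes) with library 3 alone, 2 factors (596 genes) on totals without TMM, 1 factor (974 genes) with the log2 limit, 911 genes without the filter and 3601 with DESeq2's Wald test. Main counts were 2 factors and 2158 genes, 7 and 5258, and 4 and 1462. Leaving out each library in turn gave 5 to 8 factors (8677 to 13341 genes) with shRNA1 against NC, 0 to 5 (559 to 7233) between shRNA1 and shRNA2, 4 to 6 (1788 to 11573) between shRNA1 and shRNA3, and 0 to 8 (0 to 10800) between shRNA2 and shRNA3. The cause was not tested. Counts between shRNA3 and another group with library 3 alone take the spread of that 1 library from the other groups.

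Of the reversed factor values, 2 passed the test: GRHL2 between shRNA2 and shRNA3 without shRNA3 replicate 3 (4.35, adjusted p = 0.0386) and TP63 in that pair with library 3 alone (-0.59). The latter fit holds 1 library of shRNA3. On totals without TMM, TFAP2A for the mean was -0.14, and between shRNA1 and shRNA2 KLF5 was 0.014 and TFAP2A 0.0066. TFAP2C with shRNA2 was 0.010 without the filter. With library 3 alone, TFAP2A with shRNA3 was -0.044 and for the mean -0.14, KLF4 between shRNA1 and shRNA3 0.15, and between shRNA2 and shRNA3 TP63 as given, SOX2 -0.27 and OVOL1 -0.80. Leaving out single libraries reversed some values, whose ranges were -0.069 to 0.037 for TFAP2C with shRNA2, -0.094 to 0.052 for KLF5 and -0.11 to 0.019 for TFAP2A between shRNA1 and shRNA2, -1.25 to 0.48 for SOX2 and -3.39 to 3.71 for GRHL2 between shRNA1 and shRNA3, and -0.22 to 0.51 for TP63, -0.27 to 1.22 for OVOL1 and -1.80 to 4.35 for GRHL2 between shRNA2 and shRNA3.

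Replicate numbers did not pair the libraries: deviations of same-numbered libraries correlated at -0.0107 on average over 18 pairs. With the replicate block, factor counts against NC stayed at 5, 7, 10 and 8, and between shRNA2 and shRNA3 2 factors and 378 genes passed.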

Other observations

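Of the 5 markers of simple epithelium, 4, all keratins, rose with all 3 shRNAs. KRT7 stood between 11.1 and 16.5 CPM in NC and between 729 and 2252 CPM in the shRNA libraries. KRT19 had 18, 12 and 20 counts in NC and between 4956 and 17334 with shRNAs. KRT8 rose 2.69-, 3.33- and 2.81-fold and KRT18 1.88-, 1.88- and 2.09-fold with shRNA1, shRNA2 and shRNA3 (edgeR, all adjusted p under 0.05). EPCAM, the fifth gene of that list, passed with shRNA2 and shRNA3 and stood at -0.26 with shRNA1 (adjusted p = 0.244).

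Of the 11 mesenchyme genes, 9 were tested, and 3 rose and 4 fell with all 3 shRNAs. With each shRNA alone, 3 rose and 5 fell. Those named here were chosen after their values were seen: they cover the 3 that rose, and most of the genes that fell are left out. VIM, encoding vimentin, stood at 3.43, 3.30 and 3.04 CPM in NC and between 356 and 818 CPM with shRNAs. ZEB1 and ZEB2, repressors of epithelial genes, rose 15.8-, 8.90- and 5.60-fold and 12.9-, 5.98- and 5.72-fold. CDH2, encoding N-cadherin, fell 2.60-, 8.36- and 6.17-fold. Of the 10 squamous markers, 3 rose (KRT14, KRT6A and KRT17) and 3 fell (KRT5, DSC3 and PKP1) with all 3 shRNAs.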
